A study of Rattus norvegicus with 6 samples.

Results

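Cytosolic ribosomal protein genes were taken from the count table as the symbols Rpl or Rps followed by a number and at most 1 letter, plus Rplp0, Rplp1, Rplp2 and Rpsa. They numbered 72 of 19780 gene symbols, 42 of the large and 30 of the small ribosomal subunit, and the rule used no measured value. Mitochondrial ribosomal protein genes and copies under other symbols are not members and are given only for comparison. Whole pancreas was profiled by poly(A) RNA sequencing in 2 groups of wild type male Sprague-Dawley rats, an outbred stock, bought at 8 weeks of age. The first group comprised 3 samples with acute pancreatitis (AP) raised by intraperitoneal L-arginine, an amino acid that in excess injures the exocrine pancreas, and the second comprised 3 controls given saline by the same route. The labels state 36 hours for both groups and a dose of 5 mg/kg for the AP samples. The series' design text states 48 hours for both groups and, for AP, 2.5 g/kg given 2 times. Which of them applied is not settled. Whether each sample came from its own animal is not stated, and p-values therefore reflect only how far these samples varied, which may be technical.

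Each ribosome carries a single copy of most of its proteins, and cells make these proteins in matched amounts. In vertebrates their mRNAs start with an oligopyrimidine tract (5′ TOP), through which the kinase mTORC1 and the RNA-binding protein Larp1 set their translation and stability together. Acinar cells, the main cell type of the exocrine pancreas, secrete large amounts of digestive enzymes and are rich in ribosomes bound to the endoplasmic reticulum.

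AP libraries held 17404247 to 18961353 counts and control libraries 14453584 to 18196636. Acinar secretory genes (32 listed genes found) took 1.19%, 1.16% and 9.59% of named counts in AP replicates 1 to 3, against 67.3%, 66.5% and 65.7% in control replicates 1 to 3. All 11 acinar marker genes tested fell, among them the trypsinogen gene Prss1, and none of the 11 was at 0 in either group. Since these genes took most control reads, levels depend on what they are measured against, and 2 scales are given for the ribosomal protein genes. TMM scaling sets each gene against the middle of the tested genes, and library totals set it against all reads. Going to library totals raised the median log2 fold change of all tested genes by 2.18.

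Ribosomal protein transcripts took a larger share of the reads in AP pancreas and at the same time a smaller share of the reads left beside the acinar secretory genes. They held 3.62%, 3.25% and 3.39% of named counts in AP replicates 1 to 3, against 2.06%, 2.23% and 1.72% in control replicates 1 to 3. The means were 3.42% ± 0.186 in AP and 2.00% ± 0.26 in controls (SD, n = 3 each), a ratio of 1.71. With the acinar secretory genes taken out of the total, the share was 3.66%, 3.29% and 3.75% in the AP libraries and 6.29%, 6.65% and 5.01% in the control libraries. Those means were 3.57% ± 0.248 and 5.98% ± 0.862, a ratio of 0.596. The groups did not overlap on either scale, and the order of the groups was opposite. The 95% Wilson intervals of single libraries were at most 0.0413 percentage points wide. They describe counting error alone, not variation between samples, and are too narrow if PCR copies of a molecule were counted as reads. In bulk tissue fewer cells of a type and less RNA per cell cannot be told apart.

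**Figure D1:**
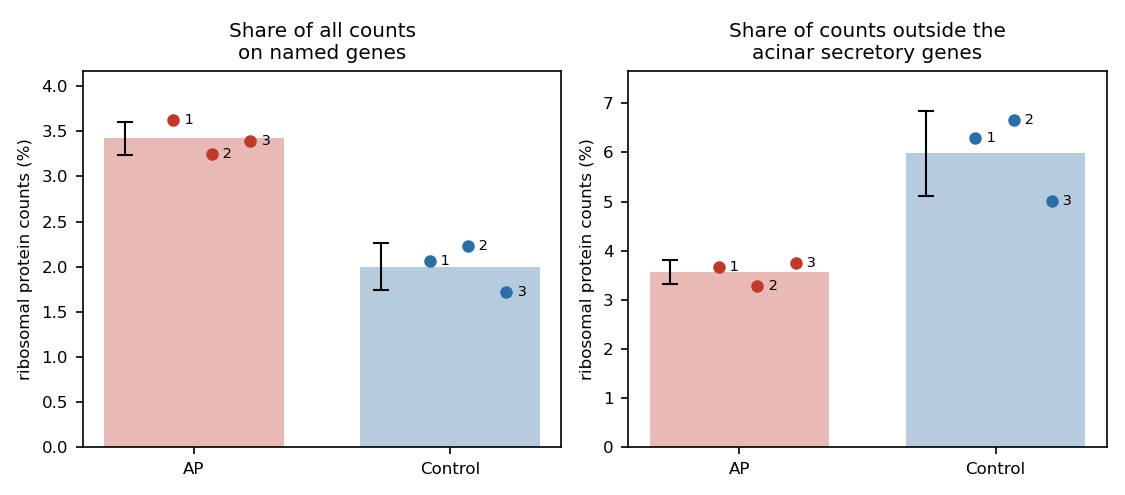
Summed counts of ribosomal protein genes as a percentage of all counts on named genes (left) and of the counts left without the acinar secretory genes (right), for AP and control pancreas. Dots are libraries with their replicate number, bars are means and whiskers are 1 SD (n = 3); AP stands above control on the left (3.42% and 2.00%) and below it on the right (3.57% and 5.98%).

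Gene by gene and on the TMM scale, the ribosomal protein genes fell together. Of the 70 that passed the filter on low counts, 68 were lower in AP and 0 higher at an adjusted p of 0.05 (edgeR's quasi-likelihood test with Benjamini-Hochberg adjustment over 13240 genes), which is 97.1% of them beside 30.5% of all tested genes called lower and 34.1% called higher. No member had a positive log2 fold change in this fit, and DESeq2 and limma-voom also called 0 higher. The remaining 2, Rps2 and Rpl10l, had log2 fold changes of -0.44 ± 0.184 (SE) and -1.07 ± 0.48 (adjusted p = 0.064 and 0.0796). The median log2 fold change of the 70 was -1.37, a 2.59-fold lower level, against 0.07 over all tested genes. Normalised CPM (counts scaled to a common library size with TMM) of AP and control libraries did not overlap, with AP lower, in 68 members (97.1%) and in 33.1% of all tested genes. Quartiles of the members' log2 fold changes were -1.64 and -1.20, against -0.74 and 1.06 over all tested genes. The lowest members were Rpl21 (-2.08) and Rps27l (-2.04).

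With library totals the same genes pointed the other way. Of the 70 members 59 were then higher in AP and 0 lower, or 84.3%, which is near the 88.2% of all tested genes called higher on that scale. Their median log2 fold change was 0.80, below the median of 2.25 over all tested genes. All 70 values were positive. Every fall of a cytosolic ribosomal protein gene given below on the TMM scale turns positive with library totals.

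**Figure D2:**
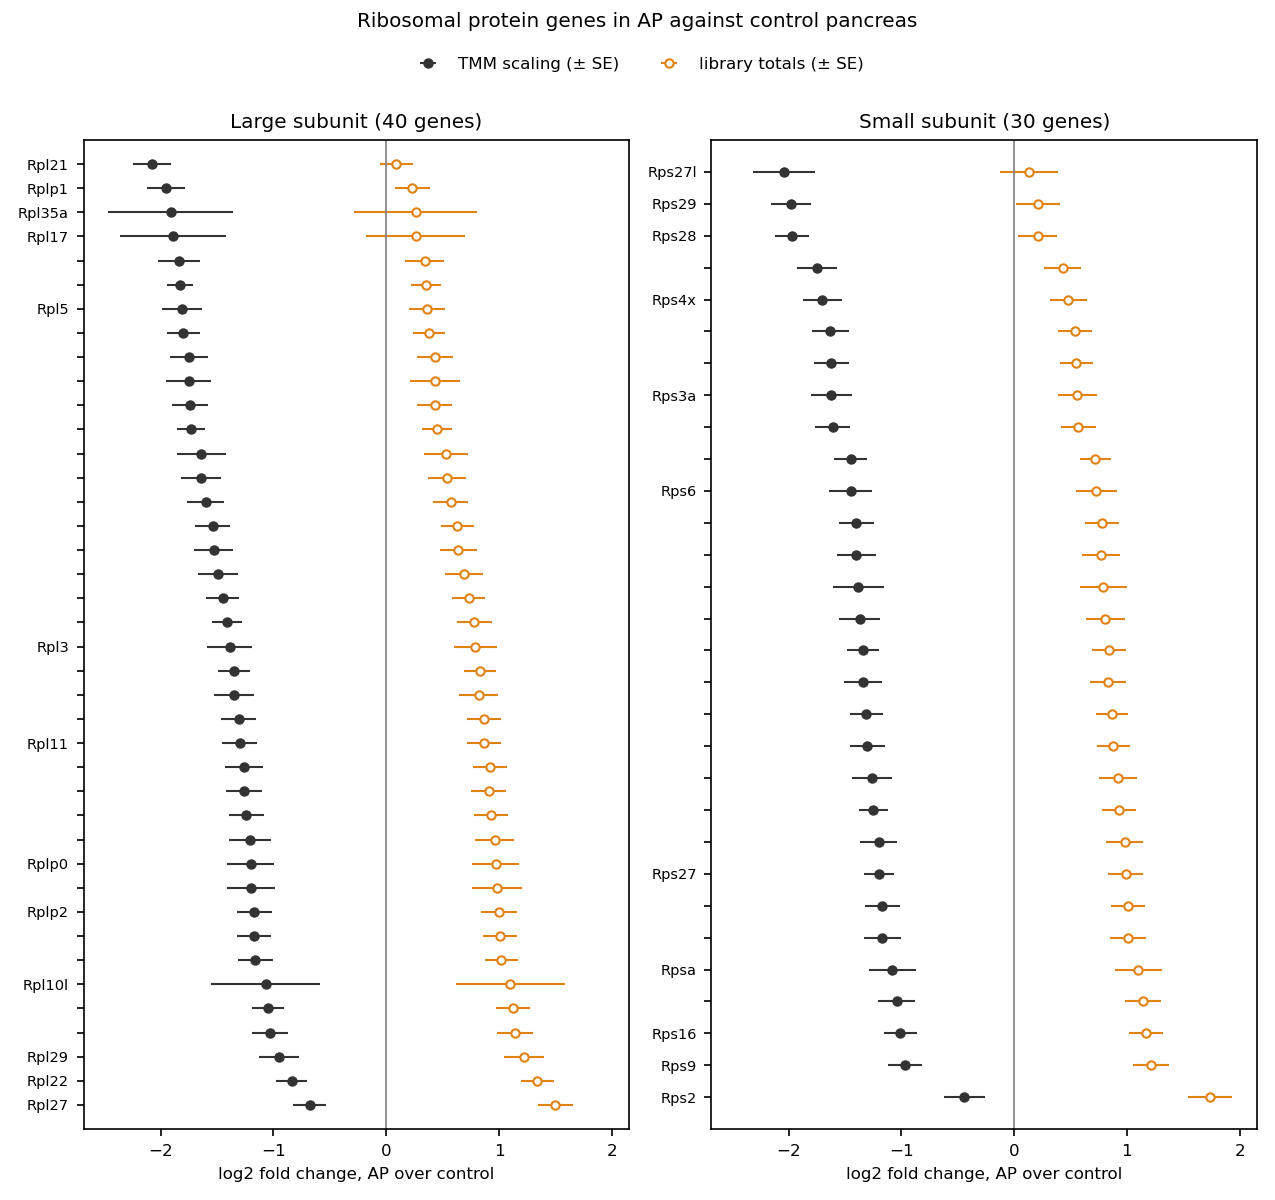
Log2 fold change of AP over control for each tested ribosomal protein gene, large subunit left and small subunit right, with TMM scaling (filled) and library totals (open); whiskers are standard errors and the members described by name are labelled. Filled points run from -2.08 (Rpl21) to -0.44 (Rps2) and open points from 0.09 to 1.74.

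Fold changes of the members were close to each other. Log2 fold changes had an SD of 0.33 over the 70 members with quartiles of -1.64 and -1.20, whereas the SD over all tested genes was 1.99. Among 63 members with a mean log2 CPM of 6.91 to 10.13, the median was -1.35 and the SD 0.32. The 569 other genes of that range had a median of -0.18 and an SD of 2.43, and 45.3% of them were called lower and 35.3% higher. The subunits had similar medians. The 40 large subunit genes had a median of -1.40 (39 lower) and the 30 small subunit genes a median of -1.35 (29 lower), a difference of -0.04 that ranged from -0.13 to 0.02 without 1 library.

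**Figure D3:**
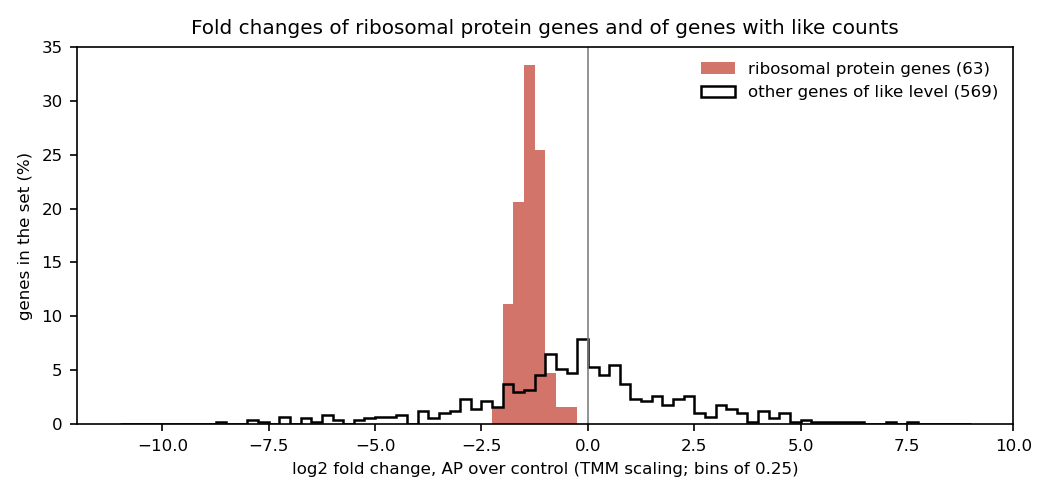
Distribution of log2 fold changes (AP over control, TMM scaling, bins of 0.25) of 63 ribosomal protein genes (filled) and of 569 other genes with a mean log2 CPM in the same range (outline), each as a percentage of its set. The ribosomal protein genes form 1 narrow peak with a median of -1.35, while the other genes spread on both sides of 0; with library totals the median over all 70 tested members was 0.80.

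Libraries of a group gave similar values. The median member stood at -1.35, -1.44 and -1.32 (log2 of normalised CPM over the control mean) in AP replicates 1 to 3, against 0.05, 0.15 and -0.18 in control replicates 1 to 3. All 70 members were below their control mean in each AP library. The median coefficient of variation over members was 7.23% among AP libraries and 12.6% among control libraries. Control replicate 3 was the lowest control for 65 of the 70 members, and AP replicate 2 was the lowest AP library for 59. AP replicate 3, which kept the most acinar reads, was the highest AP library for 48. Without any 1 library the count of members called lower stayed between 67 and 69.

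Markers of other cells differed between the same groups. The summed normalised CPM of 11 macrophage markers was 5644 to 5855 in AP and 149 to 183 in controls, that of 10 fibroblast markers (9 higher) 4635 to 9826 and 1070 to 1434, and that of 10 proliferation genes (all higher) 577 to 658 and 203 to 319. That of the 11 acinar markers was 2979 to 25080 in AP and 843006 to 856829 in controls. Of 8 neutrophil markers 5 were tested and rose (248 to 314 in AP, 5.81 to 6.33 in controls, Elane and Fpr1 at 0 counts there), and of 9 lymphocyte markers found 7 of 8 tested rose (66.6 to 217 and 2.09 to 9.98, Cd79a and Ms4a1 at 0 in controls). Of 8 islet markers 1 fell (892 to 1344 and 603 to 1384), of 7 endothelial markers 2 rose and 2 fell (174 to 190 and 158 to 201), and of 7 ductal markers 3 rose and 2 fell (818 to 1170 and 372 to 446). The part of these differences in the ribosomal protein values was not tested.

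The P stalk, through which the large subunit recruits translation factors, fell in all 3 of its genes. Rplp1 had 216, 210 and 233 normalised CPM in AP replicates 1 to 3, against 890, 924 and 731 in control replicates 1 to 3, a 3.86-fold fall (log2 fold change -1.95 ± 0.169, edgeR adjusted p = 2.11e-05). Its partner Rplp2 had 105, 95.5 and 113 in AP and 242, 270 and 194 in controls, a 2.25-fold fall (-1.17 ± 0.154). The anchor of the stalk, Rplp0, had 698, 650 and 689 in AP and 1699, 1722 and 1270 in controls, a 2.30-fold fall (-1.20 ± 0.209). AP and control values of all 3 were well apart. Among other members with high counts, Rps3a, a small subunit protein, fell 3.07-fold, Rpl3, close to the peptidyl transferase centre, 2.62-fold, and Rpsa, also known as the laminin receptor, 2.11-fold.

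The lowest fold changes, beside that of Rplp1, were found in both subunits. Rpl21, of the large subunit, had 248, 227 and 269 normalised CPM in AP replicates 1 to 3, against 1047, 1106 and 1003 in control replicates 1 to 3, a 4.24-fold fall (log2 fold change -2.08 ± 0.168, edgeR adjusted p = 1.4e-05). Rps29 had 95.1, 87.9 and 62.0 in AP and 317, 341 and 305 in controls (-1.98 ± 0.179). Rps28 had 14.3, 14.3 and 11.8 in AP and 56.4, 57.5 and 44.5 in controls (-1.97 ± 0.149). RPS28 and RPS29 are among the human genes mutated in Diamond-Blackfan anaemia. Every AP library was below every control library for each, with AP replicate 3 the lowest for Rps28 and Rps29.

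Rps27l, a paralog of Rps27 that p53 induces in human and mouse cells, also fell, as did its parent. It had 37.5, 41.0 and 54.7 normalised CPM in AP and 115, 247 and 185 in controls (log2 fold change -2.04 ± 0.276, edgeR adjusted p = 0.000265). Rps27 had 81.8, 74.2 and 64.2 in AP and 175, 177 and 153 in controls (-1.20 ± 0.134). Control values of Rps27l were uneven, with replicate 1 below the others, and the difference between the paralogs was not tested. Rps4x, the X-linked small subunit gene, fell 3.24-fold (403 ± 18.2 in AP and 1305 ± 68.7 in controls, SD, n = 3 each). Rpl10l, known as a testis-expressed retrogene in mouse and human, had 1.04, 1.22 and 1.21 normalised CPM in AP and 4.35, 1.26 and 1.61 in controls. Its value rested on control replicate 1 (-0.30 without it, adjusted p = 0.559), and it was called without control replicate 2 (-1.39, adjusted p = 0.0392). Of the paralogs under the filter, Rpl3l, a striated muscle gene, had 16 counts in AP and 1 in controls, and Rpl39l had 5 and 6.

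The highest fold changes on the TMM scale, all below 0, were those of Rps2, Rpl27, Rpl22, Rpl29, Rps9 and Rps16. Rps2, a small subunit protein near the mRNA path, had 564, 532 and 597 normalised CPM in AP replicates 1 to 3, against 793, 875 and 629 in control replicates 1 to 3. All AP values were below all control values, but by little against control replicate 3. Its call depended on the setting: it passed with DESeq2 (-0.45, adjusted p = 0.00828), limma-voom (-0.43, 0.0242), without AP replicate 3 (-0.49, 0.0455) and without control replicate 3 (-0.56, 0.0331). Rpl27 had 166, 149 and 164 in AP and 276, 281 and 212 in controls, a 1.60-fold fall (-0.68 ± 0.149, edgeR adjusted p = 0.0038). Rpl22, which in mice is needed for T cell development, had 102, 102 and 103 in AP and 188, 206 and 153 in controls, a 1.78-fold fall (-0.84 ± 0.137). Rpl29, Rps9 and Rps16 fell 1.93-fold, 1.96-fold and 2.01-fold.

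Members with roles outside the ribosome, and the S6 kinase substrate Rps6, fell too. Rpl5 and Rpl11 bind 5S rRNA and, when free, the p53 ubiquitin ligase Mdm2. Rpl5 had 287, 265 and 311 normalised CPM in AP and 1050, 1098 and 887 in controls (log2 fold change -1.81 ± 0.177, edgeR adjusted p = 3.89e-05). Rpl11 had 194, 187 and 205 in AP and 470, 550 and 424 in controls (-1.30 ± 0.153). Rps6, the substrate of the S6 kinases, had 473, 417 and 446 in AP and 1323, 1296 and 1033 in controls (-1.45 ± 0.188). The groups were well apart for all 3.

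Since the zero point depends on the scaling, each member was also set against the summed ribosomal protein counts of its own library, which no scaling factor touches. This comparison was added after the values had been seen, and each member is itself a small part of the sum. Relative to the sum, 62 of the 70 members lay within 0.5 on the log2 scale, 8 were called higher in AP and 9 lower (edgeR, adjusted over 13240 genes), and 53 were not called. Of all tested genes 75.7% were higher and 7.84% lower on that scale. Rps2 rose to 3.49%, 3.53% and 3.51% of ribosomal protein counts in AP replicates 1 to 3, against 1.80%, 1.86% and 1.71% in control replicates 1 to 3 (log2 fold change 0.97 ± 0.184, adjusted p = 0.000675). Rpl27 made up 1.03%, 0.986% and 0.963% in AP and 0.628%, 0.598% and 0.574% in controls (0.73 ± 0.152, adjusted p = 0.00124). Rpl22 made up 0.629%, 0.672% and 0.607% in AP and 0.427%, 0.44% and 0.414% in controls (0.57 ± 0.146, adjusted p = 0.00404). In each, the 3 AP shares were above all control shares.

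In the opposite direction Rpl21 made up 1.53%, 1.5% and 1.58% of ribosomal protein counts in AP and 2.38%, 2.36% and 2.72% in controls (log2 fold change -0.69 ± 0.178, edgeR adjusted p = 0.00449). Rplp1 made up 1.34%, 1.39% and 1.37% in AP and 2.03%, 1.97% and 1.98% in controls (-0.55 ± 0.167, adjusted p = 0.0115). Rps2 and Rpl27 were called in all 11 settings of this comparison, and Rpl22 and Rpl21 in all 10 in which they were tested, since leaving out symbols on several rows removed them. The other 13 calls were lost in 1 to 9 settings (largest adjusted p of 0.0517 to 0.163), and the counts fell to 3 higher and 4 lower with the replicate number as a block. Limma-voom gave 11 higher and 13 lower. Without 1 library there were 3 to 6 higher and 4 to 6 lower, with 3 and 4 without AP replicate 1, 4 and 5 without AP replicate 2, 5 and 4 without AP replicate 3, and 4 and 5 without control replicate 1 or control replicate 2. Rpl29, Rps9, Rps16 and Rpl34 were among the remaining higher calls and Rps27l, Rps28, Rps29, Rpl38, Rpl5 and Rpl35 among the remaining lower ones. Shares of Rps27l overlapped between the groups (0.232%, 0.272% and 0.322% in AP, and 0.261%, 0.526% and 0.503% in controls). Large subunit genes held 54.0%, 53.7% and 54.8% of ribosomal protein counts in AP and 56.7%, 56.2% and 56.1% in controls. With Rps2 left out they held 55.9%, 55.7% and 56.8% in AP and 57.8%, 57.3% and 57.1% in controls, and the groups still did not overlap.

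**Figure D4:**
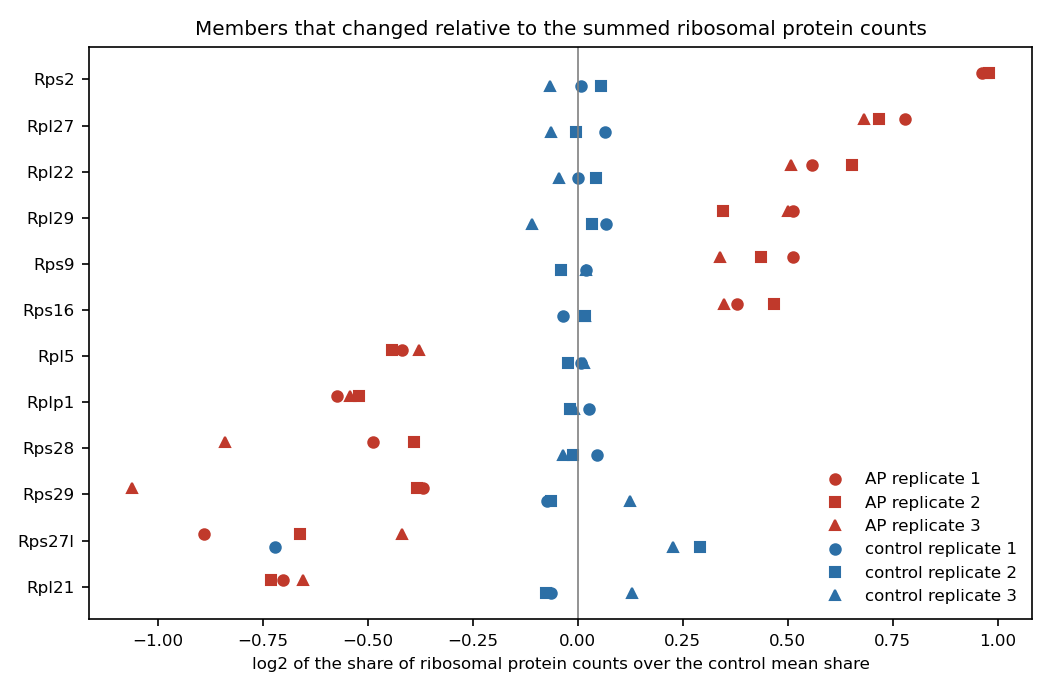
Share of each library's ribosomal protein counts taken by 12 of the 17 members called in that comparison, those that the rule for named members took, as log2 over the control mean share, with AP libraries in red and control libraries in blue and a symbol for each replicate. Rps2 lies near 0.97 in all AP libraries, Rpl21 lies near -0.69 in all AP libraries, and Rps27l overlaps between the groups.

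For some members the count depended on how reads were assigned. The table listed 15 of the 72 symbols on several rows, which were summed here, and the labels do not state what was done with multiply matching reads. For Rpl12 the second row held 4.30%, 30% and 4.21% of the counts in AP replicates 1 to 3, and 3.83%, 31.4% and 14.9% in control replicates 1 to 3. For Rpl35a, mutated in some Diamond-Blackfan families, the second row held 50%, 23.5% and 54.1% in AP and 50.7%, 5.37% and 7.03% in controls. For Rpl12 replicate 2 stood apart in both groups, and for Rpl35a control replicate 1 and AP replicates 1 and 3 stood apart from the rest. The summed Rpl12 fell (407, 309 and 488 normalised CPM in AP, 1342, 1232 and 1182 in controls, log2 fold change -1.64 ± 0.218). The summed Rpl35a had 4.19, 10.5 and 5.06 normalised CPM in AP and 9.06, 44.7 and 20.6 in controls, with overlap between the groups. Its log2 fold change of -1.91 ± 0.554 (edgeR adjusted p = 0.0151) was no longer called without AP replicate 1 (-1.67, adjusted p = 0.0532) or control replicate 2 (-1.16, adjusted p = 0.0792). Rpl17, on 1 row, was the other member with overlap: 119, 112 and 226 in AP and 697, 781 and 218 in controls (-1.89 ± 0.472, adjusted p = 0.00744), with control replicate 3 far below the other controls and AP replicate 3 far above the other AP libraries. Near-identical copies are common among ribosomal protein genes, so reads of any member could have been lost to or gained from a copy. Rpl35al1, a copy of Rpl35a by its symbol, had 105, 85.5 and 101 normalised CPM in AP and 244, 182 and 195 in controls. These values were above those of Rpl35a in every library, and whether they include reads of Rpl35a was not tested.

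**Figure D5:**
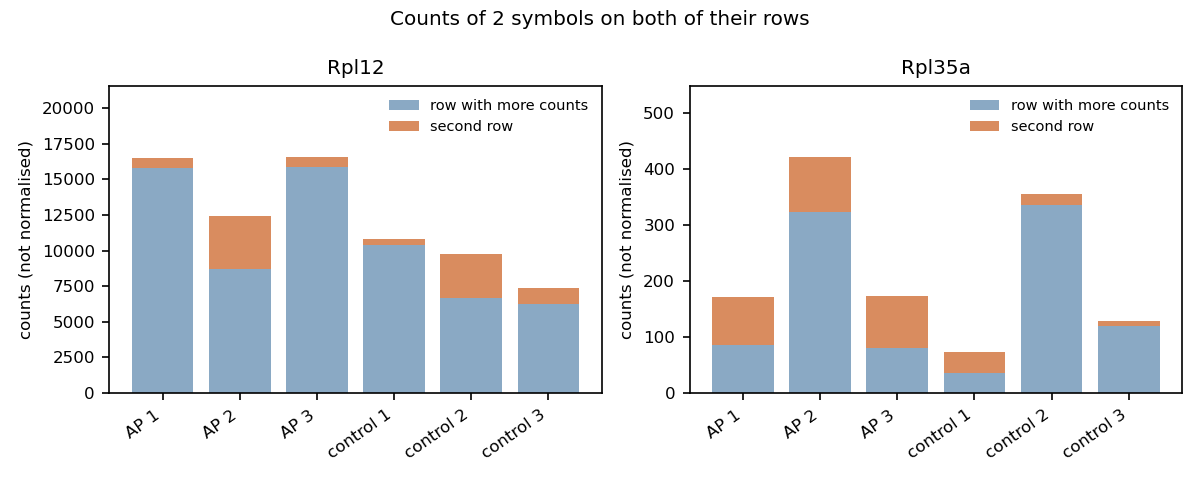
Counts, not normalised, of Rpl12 (left) and Rpl35a (right) in each library, AP replicates first, divided between both rows of the table that carry the symbol. The second row of Rpl12 held 30% and 31.4% in replicate 2 of AP and control, against 3.83% to 14.9% elsewhere.

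Promoters were set beside the values because the members moved together. Windows from 250 bases before to 50 after the annotated start were taken from RefSeq (build GRCr8, not the mRatBN7.2 build of the counts) and matched by symbol for 56 of 72 members. From 30 bases before to 25 after the start, 44 of 56 members (78.6%) held an unbroken run of at least 8 C or T letters on the gene's strand, against 21.5% of 27457 promoters and 20.2% of those of tested genes. The longest such run within these bases, 24 letters, was in Rpl7a. It began at the first base searched, 30 bases before the annotated start, and ended before that start. Runs at an edge of the searched bases, as in Rpl7a and Rps16, may be longer than counted. A run could also lie wholly before the start, as in Rpl7a and Rpl21. The 44 members are therefore not a count of mRNAs that begin with the tract. Runs were searched on the gene's strand only, since the tract belongs to the transcript. Median log2 fold changes were -1.38 over the 43 tested members with a run and -1.42 over the 12 without. The windows of the members with the highest and lowest fold changes are shown for those in the RefSeq table (Rps29 and Rpl27 are named only), with the longest run in capitals where it reached 8 letters:
Rpl21: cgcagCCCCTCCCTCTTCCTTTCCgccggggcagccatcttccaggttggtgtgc
Rps27l: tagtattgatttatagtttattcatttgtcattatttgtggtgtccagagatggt
Rps28: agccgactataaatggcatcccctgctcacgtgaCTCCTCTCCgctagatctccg
Rplp1: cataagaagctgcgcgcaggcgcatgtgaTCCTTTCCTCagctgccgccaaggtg
Rpl35a: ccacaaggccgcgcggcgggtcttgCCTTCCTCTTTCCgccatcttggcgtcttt
Rps16: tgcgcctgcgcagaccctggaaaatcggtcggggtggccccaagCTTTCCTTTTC
Rps9: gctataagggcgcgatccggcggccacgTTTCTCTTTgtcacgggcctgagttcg
Rpl29: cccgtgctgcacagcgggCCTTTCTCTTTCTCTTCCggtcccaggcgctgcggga
Rpl22: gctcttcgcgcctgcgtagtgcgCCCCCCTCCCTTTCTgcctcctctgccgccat
Rps2: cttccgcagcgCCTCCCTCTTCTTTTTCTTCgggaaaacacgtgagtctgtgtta
The window of Rpl21 lies at chr12:13386129-13386183 (- strand). The window of Rps27l lies at chr8:76443628-76443682 (+ strand). The window of Rps28 lies at chr7:15311309-15311363 (- strand). The window of Rplp1 lies at chr8:71290848-71290902 (- strand). The window of Rpl35a lies at chr11:81234997-81235051 (- strand). The window of Rps16 lies at chr1:92770628-92770682 (+ strand). The window of Rps9 lies at chr1:74430413-74430467 (- strand). The window of Rpl29 lies at chr8:115947613-115947667 (+ strand). The window of Rpl22 lies at chr5:168117931-168117985 (+ strand). The window of Rps2 lies at chr10:14251818-14251872 (+ strand). All but Rps27l held a run, including both Rpl21 with the lowest and Rps2 with the highest fold change. The letters CCGGAA, the core bound by ETS factors such as GABP, were found on either strand of the 300-base windows in 27 of 56 members (48.2%), 15.8% of all promoters and 26.7% of those of tested genes. GGGCGG (GC box) was found in 34 (60.7%, against 34.9% and 61.2%) and TATAAA in 7 (12.5%, against 14.3% and 7.04%). Motifs were counted separately and may overlap; a match is a run of letters, not a shown binding site.

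Other genes of protein synthesis fell in part. Among 18 tested translation factor and other TOP mRNA genes, 12 fell and 2 rose, with a median log2 fold change of -0.86. Over all tested genes 30.5% were lower and 34.1% higher, with a median of 0.07. With library totals 17 of the 18 were higher and 1 lower, where 88.2% of all tested genes were higher. Tpt1, a TOP mRNA for the protein TCTP, had 611 ± 59.7 normalised CPM in AP and 4115 ± 270 in controls (SD, n = 3 each; log2 fold change -2.75 ± 0.254, edgeR adjusted p = 2.88e-05) and stayed lower with library totals (-0.58, adjusted p = 0.0208). The elongation factor subunit Eef1b2 fell by 1.57 ± 0.143 and the initiation factor subunit Eif3m by 1.54 ± 0.135. Rack1, a scaffold on the small subunit, fell by 1.22 ± 0.166, and Fau, whose product is cut into a ubiquitin-like protein and Rps30, by 0.68 ± 0.129. Nap1l1 and Hnrnpa1 rose (0.70 and 0.89).

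Ribosome assembly genes were called in both directions, beside 30.5% lower and 34.1% higher over all tested genes. Of 54 tested, 12 fell, 8 rose and 34 were not called, with a median of 0.02 (53 higher and 0 lower with library totals, where 88.2% of all tested genes were higher), and the 8 became 4 or 5 without AP replicate 2, AP replicate 3, control replicate 2 or control replicate 3. Nop10, of the RNA-guided pseudouridine synthase, fell by 2.25 ± 0.133 and was at -0.08 with library totals. Nob1, the nuclease that finishes 18S rRNA, fell by 1.10 ± 0.119 and Gnl3, nucleostemin, by 1.34 ± 0.149. Fbl, the methyltransferase fibrillarin, rose by 0.79. Of 16 tested genes of RNA polymerase I, which transcribes ribosomal RNA, 5 fell and 4 rose, beside 30.5% lower and 34.1% higher over all tested genes (16 higher and 0 lower with library totals, where 88.2% of all were higher), and 3 fell without AP replicate 2 or control replicate 2. Rrn3, which recruits the polymerase, fell by 1.19 ± 0.101, while its large subunit Polr1a (1.74 ± 0.19) and the nucleolar factor Tcof1 (1.44 ± 0.178) rose on both scales.

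Of 27 genes of the mTORC1, Larp1 and Myc group, 13 fell and 3 rose, with a median of -0.18, beside 30.5% lower and 34.1% higher over all tested genes. With library totals 23 were higher and 0 lower, near the 88.2% of all tested genes called higher. Larp1, the TOP mRNA binding protein, had 70.6 ± 10.4 normalised CPM in AP and 337 ± 86.3 in controls (SD, n = 3 each; log2 fold change -2.25 ± 0.217, edgeR adjusted p = 3.65e-05), and Rps6kb1, an S6 kinase, had 34.6 ± 3.3 and 160 ± 8.86 (-2.21 ± 0.122). Both were near 0 and not called with library totals (-0.08 and -0.04). Rraga, a Rag GTPase that signals amino acid supply, fell by 1.63 ± 0.142 and Myc, which activates ribosome genes, by 1.29 ± 0.34. Mtor itself had 36.5 ± 1.85 in AP and 40.0 ± 1.28 in controls (-0.13 ± 0.106, adjusted p = 0.294).

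Of 69 tested mitochondrial ribosomal protein genes, which build the separate ribosome of mitochondria, 43 fell and 2 rose, beside 30.5% lower and 34.1% higher over all tested genes, with a median log2 fold change of -0.61 and an SD of 0.64, beside -1.37 and 0.33 for the cytosolic set. With library totals 66 were higher and 1 lower, where 88.2% of all tested genes were higher. Mrps21 fell by 2.67 ± 0.142 and stayed lower with library totals (-0.50). Mrps24 and Mrpl15 fell by 2.13 ± 0.145 and 1.45 ± 0.109. The risers were Mrpl49, no longer called without AP replicate 2, AP replicate 3 or control replicate 3, and Mrps6, no longer called without AP replicate 3. Mitochondrial ribosomal protein genes took 0.189%, 0.194% and 0.201% of named counts in AP and 0.0754%, 0.0746% and 0.0646% in controls. The difference between the cytosolic and mitochondrial sets was not tested.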

How the data were processed

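The authors deposited whole-number counts of reads per gene row, not normalised. Fragments of about 300 bp from poly(A) RNA were read at 150 bp, per the labels' protocols. Per the submitters' processing notes FastQC, STAR, featureCounts, DESeq2 and the build mRatBN7.2 were used. Their versions, the annotation, the strand setting and the treatment of multiply matching reads are not stated there.

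Of 23096 rows, 3110 had no gene name (1.41% to 7.69% of a library's counts) and stayed out. Rows sharing a symbol were summed. The main test was edgeR 4.0.16 (quasi-likelihood, TMM, default filter, Benjamini-Hochberg, adjusted p of 0.05, R 4.3.3) on 3 AP against 3 control samples with no covariate. It was checked on simulated counts, in which both groups had the same mean profile apart from a small set of changed genes. That check could not cover the shift in acinar reads between these groups, or the choice of scale. Standard errors came from dividing the size of each log2 fold change by the root of its F statistic. Normalised CPM use TMM-scaled library sizes and are not shares of reads. Alternatives included DESeq2 1.42.0 and limma 3.58.1. Members, lists and tests were chosen with earlier results of these data known. The rule for named members took the 6 highest and 6 lowest fold changes at a mean log2 CPM of at least 2, the 4 with the most counts, tested paralogs with their parents, members whose groups overlapped and a fixed set (stalk genes, Rpsa, Rps6, Rpl5, Rpl11). From each list it took the 3 lowest p, plus Fau, Rack1, Myc, Larp1 and Mtor. Other named genes were chosen after their values were seen. Some members are not reported by name here.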

Additional observations from a re-analysis of the deposited data

How the results depend on the processing

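Library totals turned the direction of the members. With them 59 members were called higher and 0 lower, the median log2 fold change was 0.80, and the log2 fold changes of the named members were Rpl21 0.09, Rps27l 0.13, Rps29 0.21, Rps28 0.21, Rplp1 0.23, Rpl35a 0.26, Rps16 1.17, Rps9 1.21, Rpl29 1.22, Rpl22 1.34, Rpl27 1.5, Rps2 1.74, Rplp0 0.97, Rps3a 0.56, Rpl3 0.79, Rpsa 1.10, Rpl10l 1.10, Rps27 0.99, Rps4x 0.48, Rplp2 1, Rps6 0.73, Rpl5 0.36, Rpl11 0.87, Rpl17 0.26. Comparison lists moved too, to 66 higher and 1 lower (mitochondrial ribosomal), 17 and 1 (translation factors), 8 and 1 (ribosome-associated genes, where the TMM count was 0 higher and 6 lower of 10), 53 and 0 (ribosome assembly), 16 and 0 (RNA polymerase I) and 23 and 0 (mTORC1, Larp1 and Myc). This follows from the scale itself, which shifts all genes alike, and 88.2% of all tested genes were called higher on it. On the TMM scale 30.5% of all tested genes were called lower. The ribosome-associated list includes the member Rps27l and shares Tpt1 with the translation factor list. Under the other 17 alternatives 67 of the 70 tested members were called lower wherever tested, the exceptions being Rps2, Rpl10l and Rpl35a.

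The SD over members was 0.49 without a filter, where the scarce paralogs entered, 0.32 without symbols on several rows and 0.33 to 0.37 without 1 library. The large minus small subunit difference ranged from -0.13 to 0.02 without 1 library. Shares were 2.85% in AP and 1.63% in controls without symbols on several rows, and 5.98% in controls without acinar secretory genes. Limma-voom called 0 mitochondrial ribosomal genes higher, and leaving out 1 library gave 0 to 2. Leaving out 1 library gave 4 to 8 ribosome assembly genes higher and 3 to 5 RNA polymerase I genes lower.

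Same-numbered samples did not deviate together (correlations of -0.0286, 0.0325 and -0.107), and only AP replicate 2 correlated best with its own number. With the replicate number as a block 68 members were again called lower, ribosome assembly genes called higher fell to 5, and members called relative to the summed ribosomal protein counts fell to 3 higher and 4 lower. Without a filter that comparison gave 5 higher, and without symbols on several rows 3 higher; leaving out 1 library gave 3 to 6 higher and 4 to 6 lower, and values of -1.04 to 0.15 for Rpl35a, positive without control replicate 2. With 3 samples a group and near-identical gene copies, the precision for small differences between members is limited.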

Other observations

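The table held 14 symbols built on a ribosomal protein name that the selection rule did not take, mostly copies and pseudogenes, of which 11 were tested. By edgeR 10 of these fell and 0 rose, beside 30.5% lower and 34.1% higher over all tested genes. A positive change at an unadjusted p under 0.05 was seen in 0 of them. Copies may hold reads of their parent genes, so these falls may not be separate from those of the members. Rpl22l1, the paralog of Rpl22, had 52.4, 48.0 and 61.5 normalised CPM in AP replicates 1 to 3, against 196, 163 and 125 in control replicates 1 to 3 (log2 fold change -1.58 ± 0.182, adjusted p = 0.000101), whereas Rpl22 was at -0.84. All AP values were below all control values. Rpl35al1 had 105, 85.5 and 101 in AP and 244, 182 and 195 in controls (-1.09 ± 0.153). The groups did not overlap. Rps27a-ps1 (-1.37 ± 0.127), Rps18l1 (-1.35 ± 0.175) and Rps10l1 (-0.84 ± 0.15) fell as well. Rpl7l1 was the exception, with 67.5, 75.1 and 77.7 in AP and 62.8, 71.4 and 61.9 in controls (0.17 ± 0.114, adjusted p = 0.225), and its groups overlapped. It is known as a ribosome assembly protein rather than a ribosomal subunit. With library totals 8 of the 11 were called higher and 0 lower, where 88.2% of all tested genes were higher. Rps12l2 had the only negative value there (-0.94, edgeR adjusted p = 0.141).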
